A study of Mus musculus with 21 samples.

Results

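Genes of cholesterol and fatty acid synthesis, with those that control the pathway, were followed in the ventral hypothalamus (VH) of mice under 4 dietary conditions. The members were chosen by symbol, as the genes of the count table that stood on a list of 35 symbols, and 33 of the 21654 genes in the table were found. The symbol *Hmgcs1* matched no line of the count table, so its reads were not analysed here, and *Sc4mol* and *Msmo1* are names of 1 gene, listed as *Sc4mol*. They comprise 17 sterol synthesis enzymes, 6 genes of SREBP control and sterol transport, 3 of fatty acid synthesis and 7 of desaturation, elongation and activation.

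RNA-seq was performed on 21 libraries, each from polyA RNA of VH punches from 2 mice pooled equally. The punches, labelled circumventricular hypothalamus, came from male C57BL/6J mice (C57/B6J in the labels) that were between 12 and 14 weeks of age on arrival. Each mouse ate regular chow (RC) or a high-fat diet (HFD) for several weeks and then either kept that diet (NoDS, no diet switch) or was moved to the other diet for a week (DS, diet switch). All mice were kept awake with unfamiliar objects for 3 hours before collection at ZT6, 6 hours after lights on.

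Mice that ate RC throughout were RC NoDS (n = 5 libraries), and mice that ate HFD throughout were HFD NoDS (n = 5 libraries). A move from RC gave RC → HFD (n = 6 libraries) and a move from HFD gave HFD → RC (n = 5 libraries). A library was 1 replicate, so the values are of pools and not of single mice, and the authors had screened punches for genes of the arcuate nucleus against those of the lateral hypothalamus. Pools that failed quality control were not sequenced. Deposited reads on genes summed to between 16380781 and 16390598 per library, because the authors' pipeline re-samples libraries to a common depth. Depth is therefore alike between libraries, while other measures of the libraries, given below, differed.

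Cholesterol is built from acetyl-CoA through mevalonate, squalene and lanosterol, and fatty acids from malonyl-CoA, after which they are desaturated, elongated and joined to CoA. Both routes are switched on by the SREBP transcription factors, which SCAP escorts out of the endoplasmic reticulum when sterols are low and which INSIG proteins hold there when sterols are plentiful. The brain makes its own cholesterol, since lipoproteins of the blood hardly cross into it, and much of that cholesterol is in myelin.

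The tissue label was checked against 8 VH markers. *Pomc* was the most abundant of them and 7 of the 8 passed the filter of 50 reads on average, with *Sim1* below it. *Pomc* and *Agrp*, both among the 8, were also the arcuate genes of the authors' screen of punches. Their levels are therefore no independent check. The 4 adipocyte markers each averaged under 5 reads, and the cortical markers *Neurod6*, *Tbr1* and *Slc17a7* were at 0 in some libraries. Because the tissue is a mixture of cells, fewer cells of a type and less RNA per cell cannot be told apart.

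HFD NoDS replicate 20 stood apart from the rest of its group. Its reads of 6 members, *Pmvk*, *Cyp51*, *Sc4mol*, *Scap*, *Stard4* and *Acly*, lay far from those of the other 4 HFD NoDS libraries. Of 3116 genes that averaged 5 to 50 reads, 32.9% were at 0 in HFD NoDS replicate 20, the highest share of any library, 31.9% in HFD → RC replicate 17, the next highest, and 1.12% in RC NoDS replicate 1, the lowest. The mean ± SD of this share was 3.22 ± 2.42% over the RC NoDS libraries. It was higher in the groups that had eaten HFD, at 11.9 ± 8.82% for RC → HFD, 16.5 ± 10.3% for HFD → RC and 16.3 ± 9.93% for HFD NoDS. Every HFD NoDS library was above every RC NoDS library in this share, and the part of the share in the members' values was not tested beyond fits with it as a covariate.

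All 33 members passed the filter. Levels per length (RPKM, reads per length of exon and depth, over all 21 libraries) ran from 1.56 ± 0.494 (SD, n = 21) for *Idi1*, an isomerase of the mevalonate route, to 406 ± 28.8 for *Scd2*, a stearoyl-CoA desaturase. *Scd2* was followed by *Fads2* (110 ± 7.87 RPKM) and *Fads1* (76.4 ± 4.85 RPKM), both fatty acid desaturases. *Scd1*, at 68.3 ± 8.13 RPKM, and *Acly*, at 67.1 ± 3.46 RPKM, differed by less than their spread. Among sterol enzymes the levels were highest for *Fdps* (56.6 ± 4.85 RPKM) and *Pmvk* (49.3 ± 5.6 RPKM), and lowest, above *Idi1*, for *Hsd17b7* (1.89 ± 0.404 RPKM).

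To test the members, edgeR's quasi-likelihood test with TMM factors was run over all genes averaging at least 50 reads, and p-values were adjusted over the 12768 genes tested. A gene was called at an adjusted p under 0.15, and each log2 fold change is given ± its standard error. Besides the 6 pairs of groups, current diet was the mean of both groups now on HFD minus the mean of both now on RC, and earlier diet was the mean of both groups that began on HFD minus the mean of both that began on RC. The interaction was the effect of current diet after HFD minus that after RC.

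The 10 comparisons share libraries, so that their counts are not independent of each other. By edgeR, 0 members were called in each, and the counts follow beside those of all genes. In HFD NoDS v RC NoDS, 0 of 33 members passed an adjusted p of 0.15, a level that 10 of 12768 genes passed (0.0783%). At an unadjusted p under 0.05, 4 members (12.1%) were lower and 0 (0%) higher, beside 456 genes lower (3.57%) and 490 higher (3.84%). The median log2 fold change was -0.085 over the members and 0.0065 over all genes tested. The 4 lower members were *Sc5d*, *Insig1*, *Scd2* and *Acsl3*, and with the share of low genes at 0 as a covariate 0 of these 4 kept an unadjusted p under 0.05.

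In HFD → RC v RC → HFD, the groups of opposite energy balance, 0 of 33 members passed an adjusted p of 0.15, a level that 1 of 12768 genes passed (0.00783%). With an unadjusted p under 0.05 there were 0 members lower (0%) and 1 higher (3.03%), and of all genes 279 lower (2.19%) and 404 higher (3.16%). Members had a median log2 fold change of 0.018, and all genes tested one of 0.00012. With 1 library left out at a time, the median over the members ran from 0.0083 to 0.042. The 1 higher member was *Lss*. With the summed oligodendrocyte markers, given further on, as a covariate in edgeR, its log2 fold change was 0.20 (unadjusted p = 0.079).

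In HFD → RC v HFD NoDS, a week of RC after HFD, 0 of 33 members passed an adjusted p of 0.15, a level that 9 of 12768 genes passed (0.0705%). Lower at an unadjusted p under 0.05 were 0 members (0%) beside 530 genes (4.15%), and higher 7 members (21.2%) beside 483 genes (3.78%). Over the members the log2 fold change had a median of 0.052, beside 0.0047 over all genes. The 7 higher members were *Hsd17b7*, *Ebp*, *Insig1*, *Scd1*, *Scd2*, *Elovl6* and *Fads1*.

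In RC → HFD v RC NoDS, a week of HFD after RC, 0 of 33 members passed an adjusted p of 0.15, a level that 5 of 12768 genes passed (0.0392%). At an unadjusted p under 0.05, 0 members (0%) were lower and 0 (0%) higher, beside 341 genes lower (2.67%) and 490 higher (3.84%). The median log2 fold change was -0.030 over the members and -0.00094 over all genes tested. In HFD → RC v RC NoDS, 0 of 33 members passed an adjusted p of 0.15, a level that 36 of 12768 genes passed (0.282%). With an unadjusted p under 0.05 there were 3 members lower (9.09%) and 2 higher (6.06%), and of all genes 375 lower (2.94%) and 659 higher (5.16%). Members had a median log2 fold change of 0.038, and all genes tested one of -0.00011. In HFD NoDS v RC → HFD, 0 of 33 members passed an adjusted p of 0.15, a level that 2 of 12768 genes passed (0.0157%). Lower at an unadjusted p under 0.05 were 3 members (9.09%) beside 407 genes (3.19%), and higher 0 members (0%) beside 549 genes (4.3%). Over the members the log2 fold change had a median of -0.054, beside -0.0012 over all genes.

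For current diet, 0 of 33 members passed an adjusted p of 0.15, a level that 6 of 12768 genes passed (0.047%). At an unadjusted p under 0.05, 3 members (9.09%) were lower and 0 (0%) higher, beside 290 genes lower (2.27%) and 376 higher (2.94%). The median log2 fold change was -0.040 over the members and -0.00078 over all genes tested. The 3 members were *Insig1*, *Scd1* and *Scd2*, all lower on HFD. For earlier diet, 0 of 33 members passed an adjusted p of 0.15, a level that 9 of 12768 genes passed (0.0705%). With an unadjusted p under 0.05 there were 2 members lower (6.06%) and 2 higher (6.06%), and of all genes 412 lower (3.23%) and 516 higher (4.04%). Members had a median log2 fold change of -0.026, and all genes tested one of 0.0031. That of the members ran from -0.045 to -0.011 with 1 library left out at a time. For the interaction, 0 of 33 members passed an adjusted p of 0.15, a level that 4 of 12768 genes passed (0.0313%). Lower at an unadjusted p under 0.05 were 5 members (15.2%) beside 616 genes (4.82%), and higher 0 members (0%) beside 513 genes (4.02%). Over the members the log2 fold change had a median of -0.091, beside -0.0040 over all genes. Over all 4 groups at once, 0 members were called beside 19 genes (0.149%), and 3 members, *Insig1*, *Scd2* and *Acsl3*, had an unadjusted p under 0.05 beside 1018 genes (7.97%).

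By limma-voom 0 members were called in all 10 comparisons as well. By DESeq2 0 were called in 9, and 1, *Scd2*, in HFD → RC v HFD NoDS, beside 44 of all genes there. Without HFD NoDS replicate 20, 0 members were called by edgeR in all 10, and the median over the members was -0.052 in HFD NoDS v RC NoDS and 0.092 in HFD → RC v HFD NoDS. With the share of low genes at 0 as a covariate, that median was -0.022 for current diet, -0.0068 for earlier diet, -0.059 in HFD NoDS v RC NoDS and -0.00059 in RC → HFD v RC NoDS. It was 0.0048 in HFD → RC v RC NoDS with the summed oligodendrocyte markers, given further on, as a covariate.

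**Figure D1:**
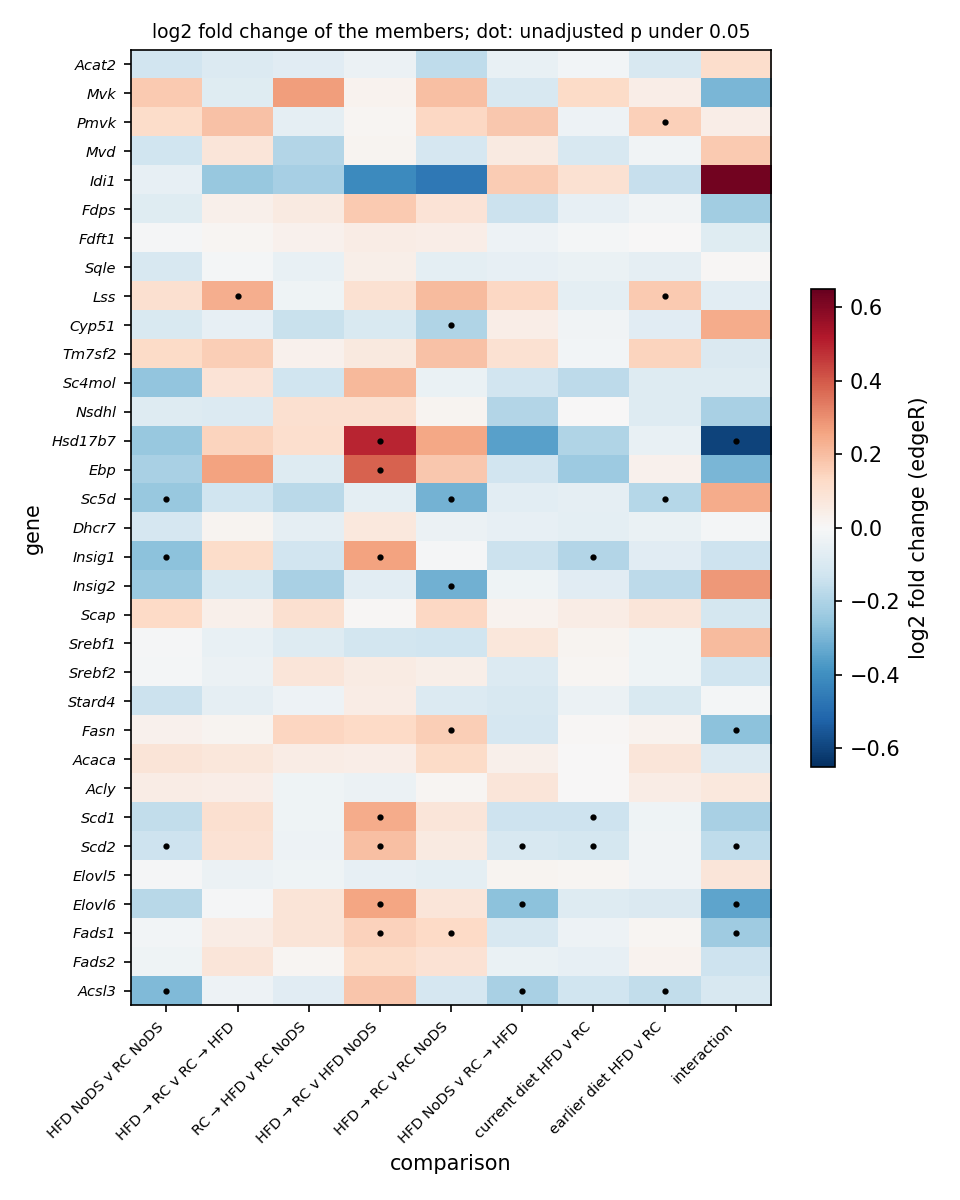
Log2 fold changes (colour) of the 33 members (rows) in 9 comparisons (columns), with a dot at an unadjusted p under 0.05. Of the 33 members, 25 are below 0 in HFD NoDS v RC NoDS (beside 48.4% of all genes) and 25 above 0 in HFD → RC v HFD NoDS (beside 51.3%), 2 comparisons that share the HFD NoDS libraries.

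*Sqle*, squalene epoxidase (ENSMUSG00000022351, chr15:59146632-59162747, + strand of NCBIM37), catalyses a rate-limiting step of sterol synthesis. *Sqle* had 1844, 1986, 1892, 1780 and 1830 reads in the 5 RC NoDS libraries, and in the 6 RC → HFD libraries 1510 at the lowest, 1785.5 at the median and 1930 at the highest. It had 1766, 1714, 1745, 1902 and 1654 reads in HFD → RC and 1952, 1629, 1731, 1695 and 1568 in HFD NoDS. The 4 groups overlapped, with the highest library in RC NoDS and the lowest in RC → HFD. For current diet the log2 fold change of *Sqle* was -0.045 ± 0.051 (adjusted p = 0.93). It was -0.10 ± 0.074 (adjusted p = 0.736) in HFD NoDS v RC NoDS.

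*Lss*, lanosterol synthase (ENSMUSG00000033105, chr10:75994333-76019883, + strand), closes the sterol ring. *Lss* had 619, 669, 701, 540 and 644 reads in the 5 RC NoDS libraries, and in the 6 RC → HFD libraries 567 at the lowest, 602.5 at the median and 676 at the highest. It had 866, 649, 646, 700 and 736 reads in HFD → RC and 594, 731, 635, 673 and 737 in HFD NoDS. HFD → RC replicate 13 was the highest library of all, and RC → HFD and HFD → RC overlapped only where the highest RC → HFD library lay above HFD → RC replicates 14 and 15. The log2 fold change of *Lss* in HFD → RC v RC → HFD was 0.23 ± 0.096 (adjusted p = 0.899). It was 0.11 ± 0.10 (adjusted p = 0.792) in HFD NoDS v RC NoDS, and -0.065 ± 0.070 (adjusted p = 0.928) for current diet. For earlier diet it was 0.17 ± 0.070 (adjusted p = 0.656).

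*Sc5d*, sterol C5-desaturase (ENSMUSG00000032018, chr9:42062260-42072383, - strand), acts late in the route. *Sc5d* had 825, 969, 802, 714 and 672 reads in the 5 RC NoDS libraries, and in the 6 RC → HFD libraries 602 at the lowest, 678.5 at the median and 856 at the highest. It had 646, 757, 599, 664 and 494 reads in HFD → RC and 662, 603, 681, 627 and 745 in HFD NoDS. RC NoDS held the highest library and HFD → RC the lowest, and the groups overlapped. The log2 fold change of *Sc5d* was -0.24 ± 0.12 (adjusted p = 0.657) in HFD NoDS v RC NoDS and -0.31 ± 0.12 (adjusted p = 0.446) in HFD → RC v RC NoDS. In HFD → RC v RC → HFD it was -0.13 ± 0.11 (adjusted p = 1), and for current diet -0.057 ± 0.080 (adjusted p = 0.943). For earlier diet it was -0.19 ± 0.080 (adjusted p = 0.663). With the share of low genes at 0 as a covariate, *Sc5d* had -0.13 in HFD NoDS v RC NoDS, -0.19 in HFD → RC v RC NoDS and -0.11 for earlier diet.

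*Hsd17b7* and *Ebp*, late enzymes of the route, had log2 fold changes of 0.50 ± 0.21 (adjusted p = 0.56) and 0.38 ± 0.17 (adjusted p = 0.582) in HFD → RC v HFD NoDS. *Ebp* had 514 reads in HFD → RC replicate 17 and 339 in the nearest library of that group. Its value was not followed without that replicate. *Cyp51*, lanosterol demethylase, had -0.20 ± 0.096 (adjusted p = 0.614) in HFD → RC v RC NoDS, and *Pmvk*, phosphomevalonate kinase, 0.16 ± 0.067 (adjusted p = 0.669) for earlier diet. For current diet 14 of the 17 sterol enzymes had a negative log2 fold change, with a median of -0.045, beside 50.3% of all genes. In HFD NoDS v RC NoDS 13 of the 17 were negative, with a median of -0.10, beside 48.4% of all genes.

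*Insig1* (ENSMUSG00000045294, chr5:28397952-28405201, + strand) encodes a protein that retains SREBP in the endoplasmic reticulum and is itself an SREBP target. *Insig1* had 1042, 994, 1007, 935 and 889 reads in the 5 RC NoDS libraries, and in the 6 RC → HFD libraries 734 at the lowest, 880.5 at the median and 968 at the highest. It had 950, 1002, 901, 944 and 965 reads in HFD → RC and 773, 608, 787, 869 and 965 in HFD NoDS. Reads were lowest in HFD NoDS replicate 20 and next lowest in a RC → HFD library, the HFD → RC libraries lay between 901 and 1002, and the groups on HFD overlapped those on RC. The log2 fold change of *Insig1* was -0.19 ± 0.067 (adjusted p = 0.821) for current diet, -0.27 ± 0.097 (adjusted p = 0.64) in HFD NoDS v RC NoDS and 0.26 ± 0.097 (adjusted p = 0.53) in HFD → RC v HFD NoDS. In HFD → RC v RC → HFD it was 0.12 ± 0.093 (adjusted p = 1). Without HFD NoDS replicate 20, *Insig1* had -0.15 (adjusted p = 0.982) for current diet and -0.19 (adjusted p = 0.999) in HFD NoDS v RC NoDS, and with the share of low genes at 0 as a covariate -0.18 (adjusted p = 0.999) in the latter. Over all alternatives the adjusted p of *Insig1* in HFD NoDS v RC NoDS ran from 0.321 to 0.999.

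*Srebf1* (ENSMUSG00000020538, chr11:60012591-60036083, - strand), which encodes the SREBP best known for fatty acid synthesis, and *Srebf2* (ENSMUSG00000022463, chr15:81977696-82035806, + strand), best known for sterol synthesis, are the transcription factors of the pathway. *Srebf1* had 2759, 2783, 2911, 3247 and 3587 reads in the 5 RC NoDS libraries, and in the 6 RC → HFD libraries 2285 at the lowest, 2846.5 at the median and 3168 at the highest. It had 2601, 3138, 3087, 2190 and 2707 reads in HFD → RC and 2972, 2992, 2915, 3042 and 3081 in HFD NoDS. The HFD NoDS libraries of *Srebf1* lay close together within the range of RC NoDS, its lowest library was HFD → RC replicate 16, and all groups overlapped. *Srebf2* had 4611, 4697, 5541, 5595 and 5715 reads in the 5 RC NoDS libraries, and in the 6 RC → HFD libraries 4967 at the lowest, 5510.5 at the median and 5766 at the highest. It had 5497, 5353, 5403, 4981 and 5178 reads in HFD → RC and 5084, 5574, 5067, 4809 and 5048 in HFD NoDS. RC NoDS held the lowest library of *Srebf2* and RC → HFD the highest, again with overlap between all groups. For current diet the log2 fold changes were 0.019 ± 0.065 (adjusted p = 0.979) for *Srebf1* and 0.012 ± 0.049 (adjusted p = 0.98) for *Srebf2*. In HFD NoDS v RC NoDS they were -0.0098 ± 0.094 (adjusted p = 0.986) and -0.014 ± 0.070 (adjusted p = 0.971). Between HFD → RC and RC → HFD they were -0.048 ± 0.090 (adjusted p = 1) and -0.039 ± 0.067 (adjusted p = 1). Under alternatives other than leaving out 1 library, these ran from -0.15 to -0.046 for *Srebf1* and -0.096 to -0.037 for *Srebf2*. In HFD NoDS v RC NoDS they then ran from -0.097 to -0.0012 and from -0.087 to -0.0093.

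*Insig2*, the second INSIG gene, had a log2 fold change of -0.31 ± 0.13 (adjusted p = 0.534) in HFD → RC v RC NoDS. *Scap*, the escort protein, and *Stard4*, a sterol carrier, were not under an unadjusted p of 0.05 in any comparison. The exons of *Srebf1* share 109 bases with *Rai1* on the opposite strand, and the strand used in counting was not given in the sources used here.

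*Acaca*, acetyl-CoA carboxylase (ENSMUSG00000020532, chr11:83943174-84215153, + strand), makes malonyl-CoA, the committed step of fatty acid synthesis, and *Fasn*, fatty acid synthase (ENSMUSG00000025153, chr11:120667254-120685492, - strand), assembles the chain. *Acaca* had 1282, 1360, 1347, 1416 and 1406 reads in the 5 RC NoDS libraries, and in the 6 RC → HFD libraries 1160 at the lowest, 1399.5 at the median and 1641 at the highest. It had 1346, 1510, 1412, 1688 and 1347 reads in HFD → RC and 1419, 1447, 1402, 1371 and 1490 in HFD NoDS. *Acaca* had its lowest library in RC → HFD and its highest in HFD → RC, and all groups overlapped. *Fasn* had 6305, 7370, 7745, 8292 and 8049 reads in the 5 RC NoDS libraries, and in the 6 RC → HFD libraries 7606 at the lowest, 8158.5 at the median and 8858 at the highest. It had 8436, 8366, 8529, 7648 and 8439 reads in HFD → RC and 8721, 7650, 7599, 7149 and 6917 in HFD NoDS. For *Fasn* the lowest library was in RC NoDS and the highest in RC → HFD, and the groups overlapped. For current diet the log2 fold changes were 0.0041 ± 0.057 (adjusted p = 0.996) for *Acaca* and 0.0054 ± 0.050 (adjusted p = 0.995) for *Fasn*. In HFD NoDS v RC NoDS they were 0.084 ± 0.083 (adjusted p = 0.8) and 0.029 ± 0.073 (adjusted p = 0.936). Between HFD → RC and RC → HFD they were 0.076 ± 0.079 (adjusted p = 1) and 0.018 ± 0.069 (adjusted p = 1). *Fasn* had 0.16 ± 0.073 (adjusted p = 0.598) in HFD → RC v RC NoDS, and its interaction was -0.27 ± 0.10 (adjusted p = 0.39).

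*Scd2* (ENSMUSG00000025203, chr19:44368166-44381354, + strand) encodes the stearoyl-CoA desaturase most expressed in brain, and *Scd1* (ENSMUSG00000037071, chr19:44468941-44482199, - strand) a close relative. How reads that match both genes were counted was not given in the sources used here. *Scd2* had 37290, 39036, 41019, 34120 and 35431 reads in the 5 RC NoDS libraries, and in the 6 RC → HFD libraries 33928 at the lowest, 35571 at the median and 37813 at the highest. It had 38065, 40181, 41078, 35685 and 36343 reads in HFD → RC and 33845, 32600, 33706, 35385 and 32380 in HFD NoDS. The 4 lowest libraries of all were in HFD NoDS, which did not overlap HFD → RC, while its highest library lay above some of RC NoDS and RC → HFD. The log2 fold change of *Scd2* was 0.20 ± 0.051 (adjusted p = 0.312) in HFD → RC v HFD NoDS. It was -0.14 ± 0.051 (adjusted p = 0.64) in HFD NoDS v RC NoDS, -0.10 ± 0.049 (adjusted p = 0.653) in HFD NoDS v RC → HFD and 0.092 ± 0.049 (adjusted p = 0.964) in HFD → RC v RC → HFD. For current diet it was -0.11 ± 0.035 (adjusted p = 0.745) and for the interaction -0.16 ± 0.071 (adjusted p = 0.484). With the share of low genes at 0 as a covariate, *Scd2* had -0.090 in HFD NoDS v RC NoDS. By DESeq2, *Scd2* had 0.20 (adjusted p = 0.131) in HFD → RC v HFD NoDS, and over all alternatives its adjusted p there ran from 0.131 to 0.799.

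*Scd1* had 5144, 5623, 6423, 5175 and 5536 reads in the 5 RC NoDS libraries, and in the 6 RC → HFD libraries 4722 at the lowest, 5473.5 at the median and 5867 at the highest. It had 5720, 6706, 6319, 4993 and 5182 reads in HFD → RC and 4385, 5927, 4433, 5541 and 4322 in HFD NoDS. HFD NoDS held the 3 lowest libraries and HFD → RC the highest, and the groups overlapped. The log2 fold change of *Scd1* was -0.13 ± 0.065 (adjusted p = 0.892) for current diet and 0.24 ± 0.094 (adjusted p = 0.535) in HFD → RC v HFD NoDS. It was -0.16 ± 0.094 (adjusted p = 0.688) in HFD NoDS v RC NoDS and 0.10 ± 0.090 (adjusted p = 1) in HFD → RC v RC → HFD.

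Markers of oligodendrocytes, the myelin-forming cells, also differed between groups, and their part in the values of *Scd1*, *Scd2* and the other members was not tested beyond a covariate fit. Their 11 genes, all tested and none at 0 in any library, summed to 2399, 2788, 3497, 2472 and 3588 CPM (reads scaled to the depth of the library) in RC NoDS and 3913, 3269, 3156, 3297, 2888 and 4235 in RC → HFD. The sums were 6674, 8934, 5248, 2972 and 4154 in HFD → RC and 3781, 6426, 3399, 6104 and 2910 in HFD NoDS, with the widest spread in HFD → RC and overlap between all groups. At an unadjusted p under 0.05, 10 of the 11 were higher in HFD NoDS v RC NoDS (median log2 fold change 0.53), 11 in HFD → RC v RC NoDS (0.79) and 9 in HFD → RC v RC → HFD (0.59). All 11 were above 0 in HFD → RC v HFD NoDS (median 0.30), with 1 under that p, and 11 were higher under that p for earlier diet (median 0.56), 2 of them called. Within groups the correlation of the members with these markers (Pearson r, 21 libraries, group means removed) ran from -0.59 for *Insig2*, with -0.57 for *Stard4* next, to 0.87 for *Scd1*, with 0.54 for *Scd2* next. *Mbp* was the most abundant, and *Mbp*, *Mobp*, *Mal* and *Ermn* were among those called higher in HFD → RC v RC NoDS. Of the astrocyte markers *S100b* was called higher in that comparison and *Gfap* for earlier diet, and of the VH markers *Agrp* was called lower on HFD for current diet. The number of genes called in HFD → RC v RC NoDS, 36, was 1 without RC NoDS replicate 1 and 205 without HFD → RC replicate 16, 1 with the share of low genes at 0 as a covariate and 7 by limma-voom, and single markers were not followed under these settings. With the oligodendrocyte sum as a covariate, the log2 fold change of *Scd1* in HFD NoDS v RC NoDS was -0.37 (adjusted p = 0.018) and that in HFD → RC v RC → HFD turned to -0.11. That of *Scd2* in HFD → RC v RC → HFD was 0.031 with the same covariate, and in HFD → RC v HFD NoDS the values were 0.15 for *Scd1* and 0.17 for *Scd2*. Over all alternatives the adjusted p of *Scd1* in HFD NoDS v RC NoDS ran from 0.018 to 0.999. *Scd1* was the 1 member called with this covariate, in HFD NoDS v RC NoDS (beside 10 of 12768 genes) and over all 4 groups (beside 24).

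Markers of tanycytes, microglia, neurons and other cells also had values to one side in some comparisons, and their part in the values of the members was not tested. Of the tanycyte markers, 6 of 6 were below 0 in RC → HFD v RC NoDS (median log2 fold change -0.35, 4 at an unadjusted p under 0.05) and 5 in HFD → RC v HFD NoDS (-0.27, 2 under that p). Of the microglia markers, 8 of 8 were above 0 in HFD NoDS v RC NoDS (0.24, 3 under that p), and 5 were under it for earlier diet. Neuron markers were above 0 for 6 of 6 in RC → HFD v RC NoDS (0.15, 4 under that p). In HFD NoDS v RC NoDS 5 of 6 were above 0 (0.11, 3 under that p). The tanycyte markers were above 0 for 6 of 6 in HFD NoDS v RC → HFD (0.30, 2 under that p). By edgeR 0 markers of these 3 kinds were called in any comparison. Endothelial markers were above 0 for 5 of 5 in RC → HFD v RC NoDS (0.26, 2 under that p). Oligodendrocyte precursor markers were above 0 for 5 of 5 in HFD NoDS v RC NoDS (0.21, 1 under that p).

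*Acsl3*, an acyl-CoA synthetase (ENSMUSG00000032883, chr1:78654400-78703562, + strand), activates long fatty acids. *Acsl3* had 3559, 3453, 3621, 3053 and 2577 reads in the 5 RC NoDS libraries, and in the 6 RC → HFD libraries 2567 at the lowest, 2948.5 at the median and 3608 at the highest. It had 2956, 2603, 2894, 3336 and 3050 reads in HFD → RC and 2220, 2284, 2624, 3134 and 2923 in HFD NoDS. HFD NoDS replicates 19 and 20 were the lowest of all libraries, and the other HFD NoDS libraries overlapped the rest. The log2 fold change of *Acsl3* was -0.29 ± 0.099 (adjusted p = 0.64) in HFD NoDS v RC NoDS and -0.21 ± 0.095 (adjusted p = 0.636) in HFD NoDS v RC → HFD. It was -0.13 ± 0.068 (adjusted p = 0.892) for current diet, -0.16 ± 0.068 (adjusted p = 0.669) for earlier diet and -0.031 ± 0.094 (adjusted p = 1) in HFD → RC v RC → HFD. With the share of low genes at 0 as a covariate it was -0.078 for earlier diet and -0.17 (adjusted p = 0.999) in HFD NoDS v RC NoDS. Over all alternatives its adjusted p there ran from 0.241 to 0.999. The exons of *Acsl3* share 206 bases with those of *Utp14b* on the same strand, and reads there cannot be told apart.

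*Fads2*, the delta-6 desaturase (ENSMUSG00000024665, chr19:10138654-10175993, - strand), makes polyunsaturated fatty acids. *Fads2* had 2455, 2610, 2904, 2575 and 3070 reads in the 5 RC NoDS libraries, and in the 6 RC → HFD libraries 2505 at the lowest, 2748.5 at the median and 2863 at the highest. It had 2947, 2937, 2989, 2590 and 2800 reads in HFD → RC and 2794, 2805, 2726, 2333 and 2506 in HFD NoDS. The groups overlapped throughout. For current diet its log2 fold change was -0.054 ± 0.051 (adjusted p = 0.922), in HFD NoDS v RC NoDS -0.030 ± 0.074 (adjusted p = 0.935) and in HFD → RC v RC → HFD 0.077 ± 0.070 (adjusted p = 1). Under alternatives other than leaving out 1 library, *Fads2* ran from -0.086 to -0.029 in HFD NoDS v RC NoDS. In HFD → RC v RC → HFD it then ran from 0.013 to 0.079. *Elovl6*, an elongase, had 0.26 ± 0.11 (adjusted p = 0.568) in HFD → RC v HFD NoDS and -0.27 ± 0.11 (adjusted p = 0.585) in HFD NoDS v RC → HFD, and *Fads1* had 0.15 ± 0.062 (adjusted p = 0.546) in HFD → RC v HFD NoDS. All 7 genes of desaturation, elongation and activation had a negative log2 fold change in HFD NoDS v RC NoDS, with a median of -0.14, beside 48.4% of all genes and their median of 0.0065. Without RC NoDS replicate 6 that of *Fads2* turned to 0.019, and the signs of members not described in full were not followed with 1 library left out.

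**Figure D2:**
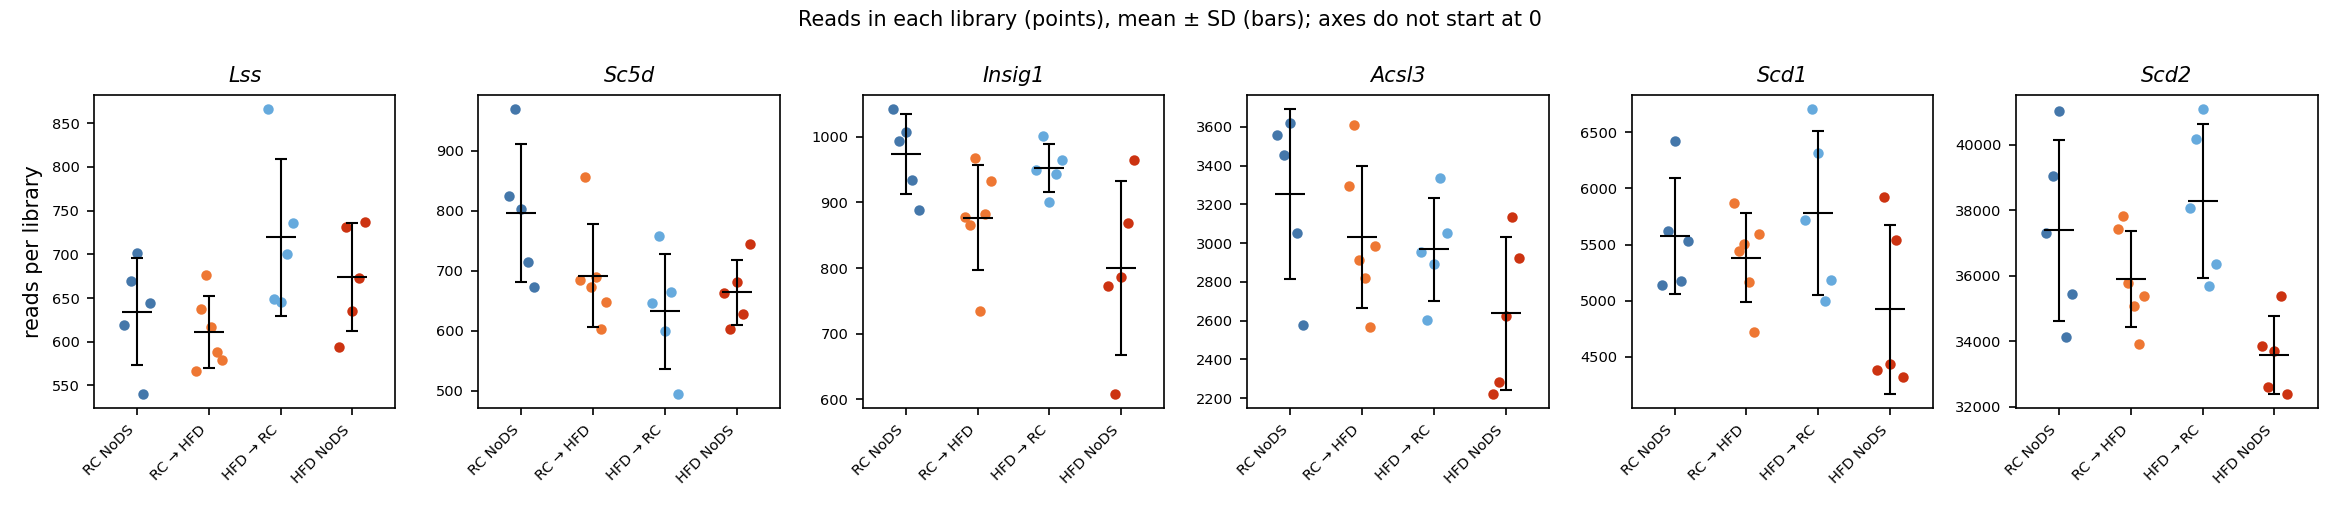
Reads in each of 21 libraries (points; vertical axis, reads per library, not from 0) of *Lss*, *Sc5d*, *Insig1*, *Acsl3*, *Scd1* and *Scd2* in the 4 groups, with the mean and SD as bars. The *Scd2* libraries of HFD NoDS lie between 32380 and 35385 reads, below all those of HFD → RC.

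The 21 members not described library by library had these ranges of log2 fold change. They ran from -0.26 for *Sc4mol* to 0.17 for *Mvk* in HFD NoDS v RC NoDS, and from -0.25 for *Idi1* to 0.26 for *Ebp* in HFD → RC v RC → HFD. In HFD → RC v HFD NoDS they ran from -0.41 for *Idi1* to 0.50 for *Hsd17b7*, and for current diet from -0.23 for *Ebp* to 0.12 for *Mvk*. For the interaction the ends were *Hsd17b7* (-0.60) and *Idi1* (0.63), the members with the lowest levels per length. Some ends involve a library far from its group, as *Sc4mol* had 696 reads in HFD NoDS replicate 20 and *Ebp* 514 in HFD → RC replicate 17. *Idi1* had its lowest reads, 22, in HFD → RC replicate 13 and its highest, 122, in HFD NoDS replicate 20. These ranges were not followed with 1 library left out. Exons of *Fdft1* share 769 bases with *Ctsb* on the opposite strand, and those of *Tm7sf2* share 532 with *1110014N23Rik* on the same strand, so that reads there are uncertain. *Acat2*, *Acly*, *Dhcr7*, *Elovl5*, *Fdft1*, *Fdps*, *Idi1*, *Mvd*, *Mvk*, *Nsdhl*, *Sc4mol* and *Tm7sf2* had no unadjusted p under 0.05 in any of the 10 comparisons.

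Of the members described in full, some values without a change of sign moved by more than 1.5 times when 1 library was left out. In HFD NoDS v RC NoDS the log2 fold change then ran from 0.057 to 0.15 for *Lss*, -0.25 to -0.11 for *Scd1* and -0.16 to -0.068 for *Sqle*. Between HFD → RC and RC → HFD it ran from -0.21 to -0.051 for *Sc5d*, 0.073 to 0.15 for *Insig1*, 0.044 to 0.15 for *Scd1*, 0.060 to 0.12 for *Scd2*, -0.065 to -0.016 for *Srebf2*, 0.00018 to 0.047 for *Fasn* and 0.021 to 0.13 for *Acaca*. For current diet it ran from -0.089 to -0.026 for *Lss*, -0.097 to -0.020 for *Sc5d*, -0.071 to -0.025 for *Sqle* and -0.073 to -0.029 for *Fads2*, and in HFD → RC v RC NoDS from 0.096 to 0.20 for *Fasn*.

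Co-variation between the members within groups was described by correlation. The median Pearson r of 528 pairs of members, from log2 CPM with the group means removed in 21 libraries, was 0.014, beside -0.0011 over all pairs of the 12768 genes. It was -0.021 for the sterol enzymes, -0.37 for SREBP control and sterol transport, 0.26 for the 3 pairs of fatty acid synthesis and 0.23 for desaturation, elongation and activation. With 1 library left out at a time, it ran from -0.0050 to 0.026 over all members, -0.037 to 0.053 for the sterol enzymes, -0.40 to -0.22 for SREBP control and sterol transport, 0.082 to 0.37 for fatty acid synthesis and 0.12 to 0.25 for the last list, and so turned its sign for all members and for the sterol enzymes. Within SREBP control and sterol transport 40% of 15 pairs were above 0, and *Scap* with *Srebf2* (0.74) was the highest of the 528 pairs. The r with the share of low genes at 0, group means removed, was 0.41 for *Scap*, 0.21 for *Srebf1* and 0.42 for *Srebf2*. It was -0.44 for *Insig1*, -0.22 for *Insig2* and -0.46 for *Stard4*, and the part of that share was not tested. Both genes of a pair were read in the same libraries, and so share depth and cells there, and the values are descriptions.

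In the promoters, RefSeq sequences of 250 bases before to 50 after the start (GRCm38.p6), 26 of the 33 members had an entry, and 7 (*Fads1*, *Fdft1*, *Fdps*, *Scd1*, *Scd2*, *Sqle* and *Stard4*) had none. TCACNCCAC, a core of the sterol regulatory element, was in 0 of the 26 and in 1.44% of 27025 gene symbols, counting both strands and letting motifs share bases. The promoter of *Hmgcs1*, which is on the list and not among the 33, held it 137 bases before the start. CCAAT was in 21 (80.8%, beside 41.1% of all symbols), GGGCGG in 21 (beside 38.2%) and CACGTG in 6 (beside 8.09%). These shares are over all symbols with a promoter, expressed in the VH or not. Shares over the 12768 genes tested, which the members belong to, were not computed. The promoter of *Insig1* is shown as one that holds the 3 other motifs, and it was chosen after its values were seen. It lies at chr5:28071162-28071461 on the + strand, with the motifs, on either strand, in capitals.
Insig1: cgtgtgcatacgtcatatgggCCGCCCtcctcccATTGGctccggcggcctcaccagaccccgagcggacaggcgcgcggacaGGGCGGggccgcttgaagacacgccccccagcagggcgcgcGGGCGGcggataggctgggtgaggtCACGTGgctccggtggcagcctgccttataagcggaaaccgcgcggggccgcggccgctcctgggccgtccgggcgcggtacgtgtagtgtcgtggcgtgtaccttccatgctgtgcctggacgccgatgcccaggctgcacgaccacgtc

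Other genes of lipid synthesis and transport were taken from 5 lists, and 0 of their genes were called in any comparison by edgeR. In other sterol synthesis and uptake (10 genes tested), the numbers lower and higher for current diet at an unadjusted p under 0.05 were 1 and 0, where all genes had shares of 2.27% and 2.94%. In other SREBP processing (6 genes tested), the numbers lower and higher for current diet at an unadjusted p under 0.05 were 1 and 0. The smallest p was that of *Nfyb*, a subunit of the CCAAT-binding factor, and its log2 fold change was -0.20 ± 0.089 (adjusted p = 0.892). In sterol efflux, esterification and LXR targets (11 tested), the numbers lower and higher for current diet at an unadjusted p under 0.05 were 0 and 1. The smallest p was that of *Abcg4*, a sterol transporter, and its log2 fold change was 0.16 ± 0.060 (adjusted p = 0.892). In other fatty acid synthesis and activation (27 tested), the numbers lower and higher for current diet at an unadjusted p under 0.05 were 2 and 0. The smallest p was that of *Dbi*, an acyl-CoA binding protein, and its log2 fold change was -0.15 ± 0.053 (adjusted p = 0.892). In other triglyceride and phospholipid synthesis (15 tested), the numbers lower and higher for current diet at an unadjusted p under 0.05 were 2 and 3. The smallest p was that of *Agpat5*, an acyltransferase, and its log2 fold change was -0.27 ± 0.071 (adjusted p = 0.62).

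*Agpat5* had 914, 960, 951, 725 and 771 reads in RC NoDS and 578, 604, 688, 701 and 717 in HFD NoDS, groups that did not overlap. It had 846, 973, 725, 686, 703 and 762 in RC → HFD, which overlapped both, and 883, 915, 847, 921 and 820 in HFD → RC. In HFD NoDS v RC NoDS the log2 fold change of *Agpat5* was -0.38, with an adjusted p from 0.23 to 0.999 over all alternatives. Its log2 fold change was 0.42 ± 0.10 (adjusted p = 0.254) in HFD → RC v HFD NoDS, and it passed the threshold there by DESeq2 (0.42, adjusted p = 0.0563) and with the share of low genes at 0 as a covariate (0.43, adjusted p = 0.112). Over all alternatives the adjusted p of *Agpat5* there ran from 0.0563 to 0.586.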

How the data were processed

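Read counts per gene were used as deposited by the authors, who, per the submitters' processing notes and the study's methods, merged runs with Picard 2.7.1, aligned reads of 100 bases with STAR 2.5.1b to mm9 and quantified genes with PORT, which re-samples libraries to a common depth. TMM factors ran from 0.982 to 1.02, and libraries of a group differed by more than counting noise (chi-square over degrees of freedom 6.89 to 42 over 45 pairs).

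Genes averaging at least 50 reads (12768) were tested with edgeR 4.0.16 (R 4.3.3), by a quasi-likelihood F-test on all 21 libraries with 1 mean per group and p-values adjusted by Benjamini-Hochberg at 0.15. The comparisons were the 6 pairs of groups, current diet, earlier diet, their interaction and all 4 groups. The standard error is the size of the log2 fold change over the square root of F. The alternatives were DESeq2 1.42.0, limma-voom (limma 3.58.1), RLE factors, library size alone, a filter of 5 reads or none, only the groups compared, 2 covariates, reads summed by symbol, and each library left out. The code was tested on simulated data. Other steps used Python 3.11.15, numpy 2.4.6, pandas 2.3.3 and matplotlib 3.10.9.

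Described in full were members with an adjusted p under 0.15 in any comparison or an unadjusted p under 0.05 in HFD NoDS v RC NoDS, HFD → RC v RC → HFD or current diet, and named control or committed steps. Members and lists were chosen with earlier results of these data known. Results of some single genes of the other lists are not reported here. Promoters were from RefSeq (GRCm38.p6) and gene positions from NCBIM37. The p-values measure the spread between pools of 2 mice, with counting error in it.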

Additional observations from a re-analysis of the deposited data

Results flagged for a closer look

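In 15 of 156 sets of values (1 gene, or 1 of 2 measures of the libraries, in 1 group) a library lay far from the others, its gap to the nearest library taking a larger part of the whole range than Dixon's 95% critical value allows. Chance gives about 1 in 20 such groups. HFD NoDS replicate 20 accounted for 6 of them. Of the members in that library *Pmvk* had 1448 reads (nearest library 1265), *Cyp51* had 1099 reads (nearest library 1366), *Sc4mol* had 696 reads (nearest library 1277), *Scap* had 2900 reads (nearest library 2209), *Stard4* had 286 reads (nearest library 492) and *Acly* had 5330 reads (nearest library 6073). The library also had the highest share of low genes at 0, and the part of either in the other was not tested.

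*Mvk* had 590 reads in HFD → RC replicate 13, above the 438 of the nearest library of its group. *Fdft1* had 2095 reads in RC → HFD replicate 10, above the 1885 of the nearest library of its group. *Cyp51* had 1058 reads in RC → HFD replicate 12, below the 1285 of the nearest library of its group. *Ebp* had 514 reads in HFD → RC replicate 17, above the 339 of the nearest library of its group. *Sc5d* had 856 reads in RC → HFD replicate 8, above the 689 of the nearest library of its group. *Dhcr7* had 949 reads in RC NoDS replicate 3, above the 798 of the nearest library of its group. *Fasn* had 7648 reads in HFD → RC replicate 16, below the 8366 of the nearest library of its group. *Fads1* had 4532 reads in HFD NoDS replicate 19, above the 4090 of the nearest library of its group. *Dbi* had 3743 reads in HFD NoDS replicate 21, below the 4293 of the nearest library of its group. No member passed an adjusted p of 0.15 in the interaction of current and earlier diet.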

How the results depend on the processing

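Of 3145 values recomputed under 31 alternatives, 2956 kept their direction and side of the threshold or moved little, and for 13 of 70 gene results a log2 fold change turned its sign at least once, all of a reported size of at most 0.10. No paired analysis was possible because the groups share no replicate numbers in the labels. At a depth of about 16380781 reads, counting noise weighs most on the members with the fewest reads, *Idi1* and *Hsd17b7*. The cause was not tested for any value below. The number of all genes called, which was 10 in HFD NoDS v RC NoDS, 1 in HFD → RC v RC → HFD, 5 in RC → HFD v RC NoDS, 9 in HFD → RC v HFD NoDS, 36 in HFD → RC v RC NoDS, 2 in HFD NoDS v RC → HFD, 6 in current diet, 9 in earlier diet, 4 in the interaction and 19 in all 4 groups, moved with the setting. With DESeq2, the count was 17 in HFD NoDS v RC NoDS, 5 in HFD → RC v RC → HFD, 96 in RC → HFD v RC NoDS, 44 in HFD → RC v HFD NoDS, 147 in HFD → RC v RC NoDS, 32 in HFD NoDS v RC → HFD, 12 in current diet, 32 in earlier diet, 116 in the interaction and 133 in all 4 groups, and 1 member was called in HFD → RC v HFD NoDS. With the share of low genes at 0 as a covariate, the count was 6 in HFD NoDS v RC NoDS, 15 in HFD → RC v HFD NoDS, 1 in HFD → RC v RC NoDS, 1 in HFD NoDS v RC → HFD, 2 in earlier diet, 33 in the interaction and 9 in all 4 groups, and the sign turned for *Fasn* (-0.017) in HFD NoDS v RC NoDS, *Acsl3* (0.016) in HFD → RC v RC → HFD, *Srebf2* (-0.014) in current diet and *Fasn* (-0.0097) in current diet. With oligodendrocyte markers as a covariate, the count was 0 in HFD → RC v RC → HFD, 28 in HFD → RC v HFD NoDS, 3 in HFD → RC v RC NoDS, 1 in earlier diet and 117 in the interaction, and 1 member was called in HFD NoDS v RC NoDS and all 4 groups, and the median of the members was -0.049 in the interaction, and the sign turned for *Scd1* (-0.11) in HFD → RC v RC → HFD, *Acsl3* (0.020) in HFD → RC v RC → HFD, *Sqle* (0.016) in HFD → RC v RC → HFD and *Fasn* (-0.010) in HFD → RC v RC → HFD. With a filter of 5 reads, the count was 2 in HFD → RC v RC → HFD, 4 in HFD → RC v HFD NoDS, 1 in HFD NoDS v RC → HFD and 0 in the interaction. With no filter, the count was 3 in HFD → RC v RC → HFD, 5 in HFD → RC v HFD NoDS, 5 in HFD NoDS v RC → HFD, 35 in earlier diet and 31 in all 4 groups. With only the groups compared, the count was 24 in RC → HFD v RC NoDS, 1 in HFD → RC v HFD NoDS and 4 in HFD NoDS v RC → HFD. With library size alone, the count was 10 in HFD → RC v RC NoDS and 2 in the interaction, and the sign turned for *Fasn* (-0.0041) in current diet and *Acaca* (-0.0050) in current diet. With limma-voom, the count was 7 in HFD → RC v RC NoDS, 3 in earlier diet and 15 in the interaction. With RLE factors, the count was 0 in the interaction. With 1 library left out at a time (each bracket names 1 library that gives the value), the number of genes called ran from 5 (without RC NoDS replicate 1) to 14 (without RC NoDS replicate 6) in HFD NoDS v RC NoDS, 1 (without RC NoDS replicate 1) to 41 (without HFD → RC replicate 16) in HFD → RC v RC → HFD, 4 (without RC NoDS replicate 1) to 11 (without HFD NoDS replicate 20) in RC → HFD v RC NoDS, 1 (without HFD → RC replicate 15) to 13 (without RC → HFD replicate 8) in HFD → RC v HFD NoDS, 1 (without RC NoDS replicate 1) to 205 (without HFD → RC replicate 16) in HFD → RC v RC NoDS, 1 (without RC NoDS replicate 3) to 31 (without HFD NoDS replicate 19) in HFD NoDS v RC → HFD, 4 (without RC NoDS replicate 2) to 10 (without HFD → RC replicate 16) in current diet, 2 (without RC NoDS replicate 1) to 70 (without HFD → RC replicate 16) in earlier diet, 0 (without RC NoDS replicate 1) to 124 (without HFD NoDS replicate 20) in the interaction and 9 (without RC → HFD replicate 11) to 80 (without HFD → RC replicate 16) in all 4 groups. Log2 fold changes ran from -0.033 to 0.070 for *Fasn* in HFD NoDS v RC NoDS, -0.12 to -0.047 for the median of the members in HFD NoDS v RC NoDS, -0.060 to 0.021 for *Srebf2* in HFD NoDS v RC NoDS, -0.048 to 0.056 for *Srebf1* in HFD NoDS v RC NoDS, -0.068 to 0.019 for *Fads2* in HFD NoDS v RC NoDS, -0.074 to 0.022 for *Acsl3* in HFD → RC v RC → HFD, -0.053 to 0.013 for *Sqle* in HFD → RC v RC → HFD, -0.10 to 0.025 for *Srebf1* in HFD → RC v RC → HFD, -0.050 to 0.0044 for the median of the members in RC → HFD v RC NoDS, 0.036 to 0.095 for the median of the members in HFD → RC v HFD NoDS, -0.00028 to 0.059 for the median of the members in HFD → RC v RC NoDS, -0.090 to -0.044 for the median of the members in HFD NoDS v RC → HFD, -0.017 to 0.052 for *Srebf1* in current diet, -0.011 to 0.031 for *Srebf2* in current diet, -0.025 to 0.026 for *Fasn* in current diet and -0.022 to 0.032 for *Acaca* in current diet.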
